A study of Mus musculus with 1931 samples.

Results

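Mouse induced extraembryonic endoderm stem cells (iXEN) and induced trophoblast stem cells (iTSC) grown in 2D were compared gene by gene. Members were single cells with at least 2500 genes above 0 TPM (transcript abundance scaled per cell). This applied to 141 of 182 iXEN wells and 141 of 283 iTSC wells, together 282 of the 1406 cells that passed this minimum in the whole series. Each side is 1 culture on 1 plate, plate 9 for iXEN and plate 8 for iTSC. There was thus no replicate, no test was run, no p-value or standard error was taken from cells, and genes are called by the size of the difference alone.

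Both cultures started from mouse ESCs in which the drug doxycycline (DOX) switches on transgenes, and both received DOX at 2 µg/ml and were harvested after its withdrawal. The iXEN came from iGATA6-mCherry ESCs, in which lentiviral vectors carry a DOX-inducible *Gata6*, were kept in serum-based XEN medium and sorted by mCherry. The iTSC came from 5-Factor ESCs, with DOX-inducible *Cdx2*, *Tfap2c*, *Eomes*, *Gata3* and *Ets2*. They were kept in TSC medium with FGF4 and heparin, partly conditioned by feeder cells, and sorted with an antibody against CD40. Values of these 6 genes do not tell the transgene from the endogenous gene. Cell line, transgenes, medium, sort and plate differ together between the cultures and cannot be told apart. As a common reference, 142 cells of 2i/LIF ESCs (Kermit ESCs with an Oct3/4-GFP reporter, no DOX, plate 7) are given beside them. These ESCs differ from both cultures in line, medium, DOX, sort and plate, which cannot be told apart. The 3D values come from 982 cells of 1 pool of RtL-embryoids, aggregates of all 3 ESC types that also received DOX at 2 µg/ml.

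XEN cells are the in vitro counterpart of the primitive endoderm, which forms the visceral endoderm, an epithelium that takes up nutrients by endocytosis and secretes carrier proteins, and the parietal endoderm, which lays down a thick basement membrane. TSCs are the counterpart of the early trophoblast, which gives rise to the extraembryonic ectoderm and placenta, and are kept undifferentiated by FGF signalling. GATA6 drives the first fate and CDX2, EOMES and TFAP2C the second.

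The number of genes above 0 TPM had a median of 8699 in iXEN (3578 to 10146) and 8537 in iTSC (2864 to 11195). With 1 TPM as the limit the medians were 8305 and 7807. The deposited TPM of a cell summed to a median of 629844 in iXEN and 564024 in iTSC. Reads per cell are unknown, since TPM keep no read number. All values below are TP10k, that is the TPM of a cell scaled to sum to 10000 over the deposited genes, and a mean is taken over all 141 cells, zeros included. A log2 ratio is that of mean TP10k + 0.1, iXEN over iTSC, so that positive values are higher in iXEN and small means are pulled towards 0. Shares of cells carry exact 95% Clopper-Pearson intervals, which cover counting error only.

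The cultures carried the markers of their labels. Of 9 iXEN markers (among them *Amn*, *Cubn*, *Dab2*, *Gata4*, *Sox17*, *Sox7*, *Pdgfra* and *Foxa2*), each iXEN cell had 5 to 9, and 121 of 141 had all 9. The 9 iTSC markers (*Cdx2*, *Tfap2c*, *Eomes*, *Elf5*, *Gata3*, *Tead4*, *Fgfr2*, *Hand1*, *Krt7*) were less complete, with 2 to 9 in each iTSC and all 9 in 35 cells. Summed iXEN markers ranged from 7.82 to 64.4 TP10k in iXEN and from 0 to 1.80 in iTSC, so the cultures did not overlap. Summed iTSC markers had a median of 6.13 TP10k in iTSC (0.346 to 26.2) and 0.901 in iXEN (0 to 4.11), and here the cultures overlapped. In every cell of both cultures the sum of its own markers exceeded that of the other culture. The 7 pluripotency markers, which include the abundant *Dppa5a*, summed to a median of 35.9 TP10k in iXEN and 14.3 in iTSC. These medians lay above those of the own markers (32.2 in iXEN, 6.13 in iTSC) and below the 183 of the ESC. The 6 fibroblast markers summed to a median of 0 TP10k in both cultures, with highest cells of 0.791 in iXEN and 0.621 in iTSC.

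A gene was compared when 25% or more of the iXEN or of the iTSC had it above 0 TPM, and called when it differed at least 4-fold on the scale above and reached 25% of the cells where it was higher. Of 11161 genes compared, 174 (1.56%) were called higher in iXEN and 116 (1.04%) higher in iTSC, together 290 (2.6%). Counts of called genes in the lists below are to be read against these shares. The median log2 ratio of all compared genes was -0.07, and 87.6% lay within 2-fold. The genes higher in iXEN were found in more cells of their own culture than those higher in iTSC. Their median share of cells was 98.6% in iXEN, and 111 of 174 were found in at least 95% of the cells. For the genes higher in iTSC the median share in iTSC was 91.5%, and 41 of 116 reached 95%. Over all compared genes the median share was also larger in iXEN, at 82.3% against 77.3% in iTSC. The called genes differed in level too, with a median mean of 1.89 TP10k in iXEN and 1.32 in iTSC for their own sides. In 4 genes, *Col4a1*, *Dab2*, *Npl* and *Cubn*, the lowest iXEN cell lay above the highest iTSC, the only ones of all 11161 compared. No called gene higher in iTSC separated all cells in this way. Such a separation rests on single extreme cells, with *Col4a1* at 1.19 against 1.13 TP10k and *Dab2* at 1.37 against 1.28. At the threshold, *Meis3* was called (0.308 TP10k in iXEN against 0.00204) and *Gpc3* was not (3.97 against 0.922), while on the other side *Phf19* was called (0.00622 against 0.325) and *Gstm1* was not (2.03 against 8.42). The counts depend on the added constant, and with 1 in place of 0.1 they were 32 and 12.

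**Figure D1:**
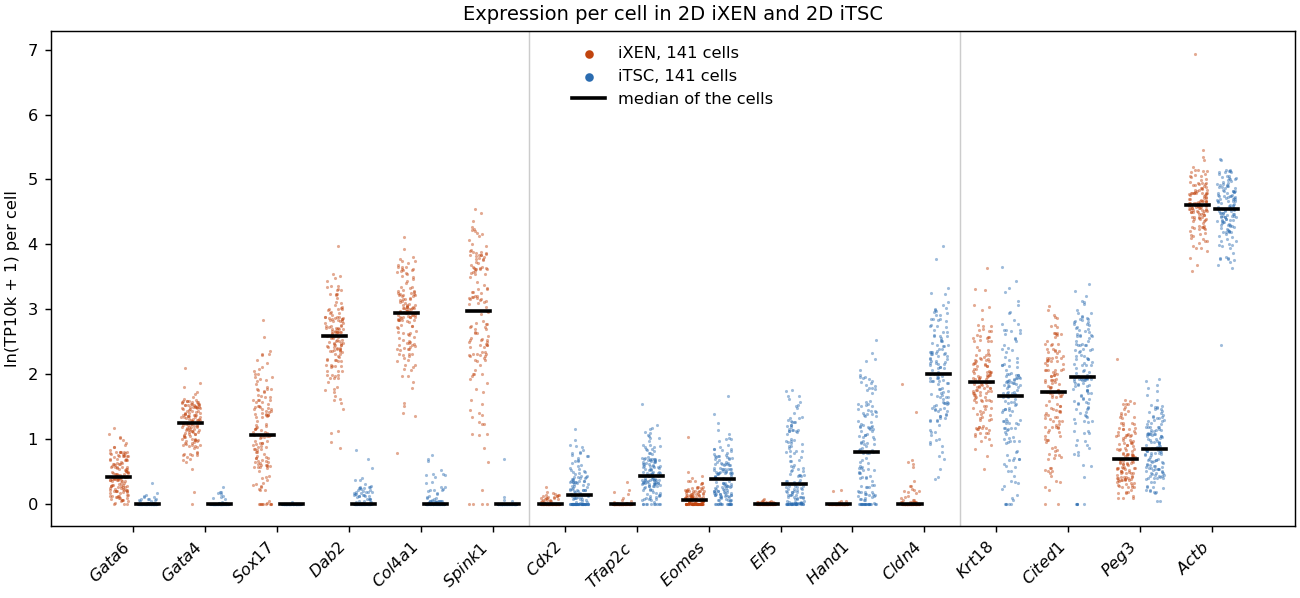
Expression of 16 genes in single iXEN (orange) and iTSC (blue), as ln(TP10k + 1) on the vertical axis, with 1 point a cell and a bar at the median of the 141 cells. Genes of the left block are higher in iXEN, those of the middle block have a higher mean in iTSC, and *Krt18*, *Cited1*, *Peg3* and *Actb* on the right were shared.

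The 6 called transcription factors of the endoderm were each found in 93.6% or more of the iXEN and in at most 14.9% of the iTSC. *Gata6*, the gene of the transgene, averaged 0.621 TP10k in iXEN (median 0.508, 0 to 2.22) and 0.0114 in iTSC (median 0, at most 0.369), and was found in 138 of 141 iXEN (97.9%, 95% CI 93.9% to 99.6%). *Gata4*, a related GATA factor that no transgene supplied, stood at 2.58 TP10k in iXEN and 0.0107 in iTSC, with 139 iXEN above the highest iTSC. *Sox17*, which acts in endoderm formation, had a mean of 2.71 TP10k in iXEN, a median of 1.90 and a highest cell of 16, and was detected in 1 iTSC. Of the 10 factors of this list all were compared, all had a positive log2 ratio, and 6 were called, among them *Gata6*, *Gata4*, *Sox17*, *Sox7* and *Foxa2*. *Hnf4a* (log2 ratio 1.60), *Foxq1* (1.70), *Klf6* (1.59) and *Hhex* (0.84) were not called. Of these, *Klf6* was found in 88.7% of the iTSC, and *Hhex* in only 49.6% of the iXEN.

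Genes of the basement membrane were called in number. *Sparc*, a collagen-binding matrix protein, averaged 106 TP10k in iXEN (19.7 to 266) and 7.87 in iTSC (0.708 to 33.1). *Col4a1*, a chain of collagen IV, averaged 19.4 TP10k in iXEN (1.19 to 60.0) and 0.0750 in iTSC (at most 1.13), and its partner *Col4a2* 4.36 against 0.0339. The chains of laminin-111 followed, with *Lama1* at 3.21 against 0.00900 TP10k, *Lamb1* at 5.16 against 0.236 and *Lamc1* at 6.32 against 0.511. *Serpinh1*, the collagen chaperone, stood at 5.62 against 0.368 TP10k, and *P4ha2*, a collagen prolyl hydroxylase, at 1.19 against 0.133. *Srgn*, a proteoglycan of secretory granules, averaged 15.7 TP10k in iXEN and was found in 13 iTSC only. The parietal endoderm and basement membrane list had 11 of 15 compared genes called higher in iXEN and none the other way, with a median log2 ratio of 3.51. *Nid2* (1.79), *Hspg2* (1.18), *Snai1* (1.05) and *Nid1* (0.39) were not called. *Pth1r*, the receptor for parathyroid hormone-related protein that marks parietal endoderm, was called at a log2 ratio of 3.51.

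*Col4a1* and *Col4a2* lie head to head on chromosome 8 (GRCm38, chr8:11198423-11312826 on the minus strand and chr8:11312805-11449287 on the plus strand), where the annotated genes overlap at their starts. Across the 141 iXEN the pair correlated at r = 0.87 (Pearson, ln scale). As for every correlation below, the points are cells of 1 library plate that share a culture, and the value is a description.

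The uptake machinery of the visceral endoderm was called as a set of parts. *Dab2*, the endocytic adaptor, averaged 13.4 TP10k in iXEN (1.37 to 52.0) and 0.0762 in iTSC (at most 1.28). *Amn* and *Cubn*, the 2 chains of the cubam receptor for vitamin B12 and proteins, stood at 6.97 against 0.169 and 3.89 against 0.00246 TP10k. *Lrp2*, the megalin receptor, averaged 1.88 against 0.0670 TP10k, and *Lrpap1*, which escorts such receptors through the secretory pathway, 21.3 against 1.58. *Dab2* and *Cubn* correlated at r = 0.55 across iXEN, and *Amn* and *Cubn* at 0.55.

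Secreted proteins of the visceral endoderm were uneven. *Spink1*, a secreted protease inhibitor, had the largest log2 ratio of all compared genes (7.81), with 24.2 TP10k in iXEN against 0.00864 in iTSC, and was found in 137 iXEN and 4 iTSC. *Apoe* was high in both, at 73.9 against 17.1 TP10k. *Ttr* and *Rbp4*, the thyroxine and retinol carriers, averaged 2.04 and 2.03 TP10k in iXEN but were found in 73 (51.8%, 95% CI 43.2% to 60.3%) and 76 cells (53.9%, 45.3% to 62.3%), most of them the same, since 60 cells had both and 52 neither. *Ttr* correlated at r = 0.76 with *Rbp4*, 0.69 with *Apob* and -0.39 with *Sox17* across iXEN. *Afp*, the fetal albumin of mature visceral endoderm, averaged 0.00745 TP10k and was found in 3 iXEN. Of 11 genes compared in this list, 9 were called higher in iXEN and none higher in iTSC.

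The promoters of 132 of the 174 genes higher in iXEN and of 88 of the 116 genes higher in iTSC are in RefSeq (GRCm38.p6), as windows of 250 bases before to 50 after each annotated start. A GATA motif (AGATAA or TGATAA, both strands) was in 14.9% of the 181 windows of the genes higher in iXEN, in 10.1% of the 119 windows of the genes higher in iTSC, in 10.1% of the 11344 windows of all compared genes and in 18.6% of all 32851 windows. The windows of the last group have a lower GC content (median 52.7%, against 56.7%, 60.7% and 61.0%). A TFAP2 motif (GCCNNNGGC) was in 23.8%, 23.5%, 25.4% and 16.6% of the windows in the same order. A motif match is a description and no site. The windows of the 15 leading iXEN genes were also looked at singly, except for *Spink1* and *Ctsh*, for which none was examined. Among these, *Dab2* and *Ctsz* hold GATA motifs before the start. In *Dab2* this holds for the window shown, while another annotated window (chr15:6386498-6386797) has 0 motifs. The 250 bases before the start are shown 5′ to 3′ on the strand of the gene, with the motif in capitals (*Dab2*, chr15:6299539-6299788, plus strand, and *Ctsz*, chr2:174439040-174439289, minus strand).
Dab2: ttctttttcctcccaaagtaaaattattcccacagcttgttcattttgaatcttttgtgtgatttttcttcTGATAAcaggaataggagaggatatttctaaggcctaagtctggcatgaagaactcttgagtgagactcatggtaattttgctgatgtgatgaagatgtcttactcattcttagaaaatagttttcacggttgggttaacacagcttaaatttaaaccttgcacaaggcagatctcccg
Ctsz: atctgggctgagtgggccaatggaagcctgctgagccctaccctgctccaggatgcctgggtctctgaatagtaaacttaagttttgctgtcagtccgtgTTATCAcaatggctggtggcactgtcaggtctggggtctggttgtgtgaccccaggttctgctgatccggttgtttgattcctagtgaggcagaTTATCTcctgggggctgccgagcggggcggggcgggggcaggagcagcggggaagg

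Lysosomal proteases and the organelle they work in were higher in iXEN. *Ctsl*, the cathepsin with the highest level, averaged 73.1 TP10k in iXEN (17.1 to 257) and 6.43 in iTSC (0.184 to 47.3). *Ctsz* stood at 20.5 against 2.31 TP10k, *Ctsh* at 6.6 against 0.105, *Lgmn* (legumain) at 22.4 against 1.33, and *Ifi30*, a lysosomal thiol reductase, at 20.9 against 1.12. *Lamp1*, a membrane protein of lysosomes, averaged 25.2 TP10k in iXEN and 4.29 in iTSC, and 139 iXEN lay above the highest iTSC. The lysosome list had 9 of 19 compared genes called higher in iXEN and 18 with a positive log2 ratio, at a median of 1.96. *Psap*, the precursor of sphingolipid activators, was the exception at 2.00 against 5.86 TP10k. Of 15 compared subunits of the V-ATPase, the proton pump that acidifies lysosomes (a family looked at after the values were seen), 3 were called higher in iXEN (*Atp6v0e*, *Atp6v0d1* and *Atp6v0a1*), 13 had a positive ratio, and their summed mean was 94.3 against 37.1 TP10k. *Tfec*, of the MiT family of lysosomal regulators, averaged 1.70 TP10k in iXEN and 0.00361 in iTSC. *Tfeb*, of the same family, ran the other way at 0.164 TP10k in iXEN and 0.708 in iTSC (log2 ratio -1.61, not called).

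The secretory pathway showed the same sign with smaller ratios. Of 16 genes of the unfolded protein response and the chaperones of the endoplasmic reticulum, 15 had a positive log2 ratio (median 0.99), and *Calr*, a calcium-binding chaperone, was the 1 gene called, at 20.7 against 3.63 TP10k. *Kdelr3*, a receptor that returns chaperones to the endoplasmic reticulum, stood at 6.72 against 0.559. *Atf4*, the translational stress factor, ran the other way at 1.17 against 3.02 TP10k.

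The 5 transgene factors of the iTSC were found in 63.1% to 92.9% of the iTSC, whereas *Gata6* was found in 97.9% of the iXEN. *Tfap2c* averaged 0.678 TP10k in iTSC (median 0.537, 0 to 3.62) and 0.00901 in iXEN, and was found in 131 of 141 iTSC (92.9%, 95% CI 87.3% to 96.5%). *Gata3* stood at 0.519 against 0.0262 TP10k. These 2 of the 5 factors were called. *Cdx2* averaged 0.313 TP10k in iTSC (63.1% of cells, 95% CI 54.6% to 71.1%) and 0.0195 in iXEN, a log2 ratio of -1.79. *Eomes* averaged 0.593 TP10k in iTSC and 0.112 in iXEN, where it was found in 91 cells (64.5%, 95% CI 56.0% to 72.4%). *Ets2* differed least of the 5, with 0.264 against 0.167 TP10k, and was below the ESC mean of 0.293. The sum of the 5 means was 2.37 TP10k in iTSC, 0.334 in iXEN and 0.773 in ESC.

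Of 17 regulators of TSCs compared, 9 were called higher in iTSC, and all 17 had a negative log2 ratio, with a median of -2.10. *Elf5*, which holds cells in the trophoblast fate, averaged 0.940 TP10k in iTSC (median 0.354, 0 to 4.76) and 0.00418 in iXEN. *Esrrb* and *Sox2*, which TSCs and ESCs both use, stood at 0.844 against 0.00235 and 0.812 against 0.00499, near the ESC means of 1.17 and 1.43 TP10k. The homeobox genes *Rhox6* and *Rhox9*, neighbours on the X chromosome (chrX:37826910-37829857 and chrX:37899097-37901770), averaged 3.00 and 2.91 TP10k in iTSC and 0.479 and 0.142 in iXEN, and correlated at r = 0.64 across iTSC. *Cd40* was called as well (0.704 against 0.0873 TP10k), but its product was the sorting marker of the iTSC. *Tead4* (log2 ratio -0.66) and *Fgfr2* (-1.05), both used as TSC markers, were found in 85.8% and 78.0% of iXEN and were not called. In 23 of 141 iXEN, 5 or more of the 9 iTSC markers were found at any level above 0, beside 27 of 142 ESC. In 2 iTSC, 5 or more of the iXEN markers were found, beside 0 ESC.

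Of 10 genes of later trophoblast compared, 3 were called higher in iTSC (*Hand1*, *Wnt7b* and *Mmp9*) and none higher in iXEN, and 9 had a negative log2 ratio, with a median of -1.59. *Hand1*, needed for giant cell formation, averaged 1.90 TP10k in iTSC (84.4% of the cells) and 0.00397 in iXEN, and *Mmp9*, a matrix protease of invading trophoblast, 0.756 against 0.0163. *Hand1* correlated at r = 0.25 with *Elf5* across iTSC (0.46 over the 80 cells with 8000 to 10000 expressed genes) and at 0.29 with *Cdx2* (0.30 over the same 80 cells). *Ascl2* (0.216 against 0.0114 TP10k) and *Cdkn1c* (0.277 against 0.00817) were not called. The hormone gene *Prl3d1* and the labyrinth protease gene *Ctsj* were at 0 in all 282 cells, and *Tpbpa*, of the spongiotrophoblast, averaged 0.00717 TP10k in iTSC. *Sct*, which encodes secretin, had the most negative log2 ratio of all compared genes (-5.86) at a mean of 7.5 TP10k in iTSC, a median of 0.682 and a highest cell of 147, against 0.0309 in iXEN.

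Leading the iTSC side by the difference of mean ln(TP10k + 1) was *H19*, an imprinted long non-coding RNA, at 71.3 TP10k in iTSC (median 37.1, 0 to 416) and 1.43 in iXEN (median 0.0283, at most 33.1). It hosts a microRNA, annotated as *Mir675*, which stood at 15.1 against 0.531 TP10k and was found in 62 iTSC, and whose reads cannot be told from those of its host. *Igf2*, the growth factor gene next to *H19* on chromosome 7 (chr7:142575529-142578143 for *H19*, chr7:142650766-142666816 for *Igf2*, both on the minus strand), averaged 7.43 TP10k in iTSC (median 4.12, 0 to 53.3) and 0.462 in iXEN. SMART-seq2 does not measure mature microRNAs. The mature forms annotated in *Mir675* (RefSeq, GRCm38.p6) are shown with the seed, bases 2 to 8, in capitals.
mmu-miR-675-5p: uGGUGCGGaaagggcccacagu
mmu-miR-675-3p: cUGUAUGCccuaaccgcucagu

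In single iTSC, *H19* and *Igf2* were to a large part in different cells. *H19* split the culture, with 61 cells at or below 7.64 TP10k, 1 at 11.6 and 79 at 23.5 or more. Of 141 cells, 48 (34.0%, 95% CI 26.3% to 42.5%) had *H19* above 10 and *Igf2* at or below 1 TP10k, with medians of 152 and 0.0135. A further 59 (41.8%, 33.6% to 50.4%) had the reverse, with medians of 0.254 for *H19* and 11.7 for *Igf2*. Both were above these levels, which were chosen after the values were seen, in 32 cells (22.7%, 16.1% to 30.5%), at medians of 61.2 and 5.12 TP10k, below those of the cells with 1 of the 2 genes. Neither was in 2 cells. The correlation on the ln scale was -0.68 over 141 cells and -0.70 over the 80 cells with 8000 to 10000 expressed genes, and neither gene followed the number of expressed genes (r = -0.03 and 0.03). *Mir675* went with *H19* (r = 0.70) and against *Igf2* (-0.56), but it lies within *H19* and is no separate measure. In iXEN, *H19* exceeded 10 TP10k in 5 cells and *Igf2* 1 TP10k in 19, and the pair correlated at 0.18.

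**Figure D2:**
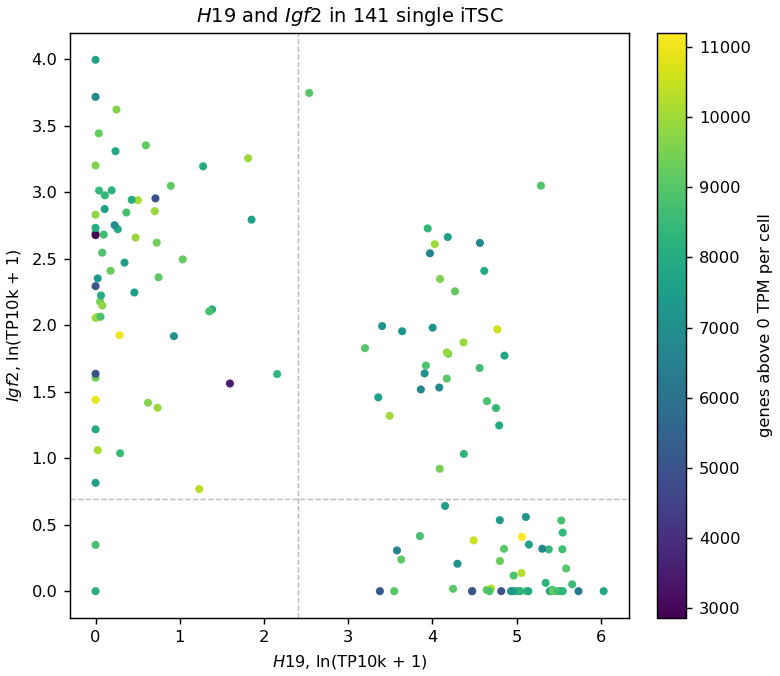
*H19* against *Igf2* in the 141 iTSC, both as ln(TP10k + 1), 1 point a cell, coloured by the number of genes above 0 TPM. Dashed lines mark 10 TP10k of *H19* and 1 TP10k of *Igf2*, and 32 cells lie above both.

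Of the 23 imprinted genes compared, 4 were called higher in iTSC (*H19*, *Igf2*, *Mest* and *Plagl1*) and none higher in iXEN. The remaining ones had a spread of signs, and 6 were shared, among them *Peg3*, *Igf2r* and *Gnas*.

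Within several families, different members were higher in each culture. Of the claudins, which set the permeability of tight junctions, *Cldn4* averaged 8.49 TP10k in iTSC (0.465 to 51.9) and 0.106 in iXEN, and *Cldn3* 2.74 against 0.00913, whereas *Cldn6* averaged 17.7 TP10k in iXEN and 3.99 in iTSC. *Cldn3* and *Cldn4* lie about 39 kb apart on chromosome 5 (chr5:134986214-134987472 and chr5:134945119-134946934) but correlated at r = 0.16 across iTSC (0.24 over the 80 cells with 8000 to 10000 expressed genes). *Ocln*, another tight junction protein, was called higher in iXEN (0.553 against 0.0391 TP10k). The D cyclins, which start the cell cycle, differed as well, with *Ccnd3* at 18.6 TP10k in iTSC and 3.59 in iXEN and *Ccnd2* at 0.0122 in iTSC and 0.801 in iXEN. Of the galectins, *Lgals1* was higher in iTSC (10.1 against 0.949 TP10k) and *Lgals2* in iXEN (1.59 against 0.00521). *S100a6* averaged 6.24 TP10k in iTSC and 0.0693 in iXEN, and *S100a1*, another calcium-binding protein of this family, 0.971 in iTSC and 8.16 in iXEN. *Tmsb4x*, the actin-binding thymosin beta 4, stood at 8.35 TP10k in iTSC and 1.44 in iXEN, and *Fabp5*, a fatty acid binding protein, at 3.75 and 0.0609. *Anxa3* (5.54 and 1.10), *Marcksl1* (5.5 and 1.0) and *Nup62cl* (6.69 and 1.28) completed the leading genes of the iTSC.

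Signalling genes were split in the same manner. The receptor gene *Fgfr1* averaged 1.03 TP10k in iTSC and 0.0566 in iXEN, and *Fgfr3* 0.0122 in iTSC and 0.489 in iXEN. *Dusp6*, a phosphatase induced by ERK, was higher in iTSC (1.12 against 0.0856 TP10k). Of the BMP ligands, *Bmp4* (1.98 against 0.0459) and *Bmp8b* (1.5 against 0.0314) were higher in iTSC and *Bmp6* in iXEN (0.390 against 0.0136). The BMP targets *Id2* (7.42 against 1.42 TP10k) and *Smad6* (0.458 against 0.0234) were also called higher in iTSC, while *Id1* had a log2 ratio of 1.29. *Wnt6* (1.18 against 0.00341) and *Wnt7b* (1.09 against 0.0770) were Wnt ligands of the iTSC, and *Dkk1*, a secreted Wnt inhibitor, stood at 0.419 TP10k in iXEN against 0.00510. *Ihh*, the Hedgehog ligand of visceral endoderm, averaged 0.402 TP10k in iXEN and 0.000681 in iTSC. *Pdgfra*, the PDGF receptor that marks primitive endoderm, stood at 0.512 against 0.00819, and its ligand *Pdgfa* had a log2 ratio of -1.56. In all, the FGF and ERK list had 1 gene called higher in iXEN and 2 in iTSC of 15 compared, the BMP and Nodal list 1 and 4 of 17, and the Wnt list 1 and 2 of 14.

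**Figure D3:**
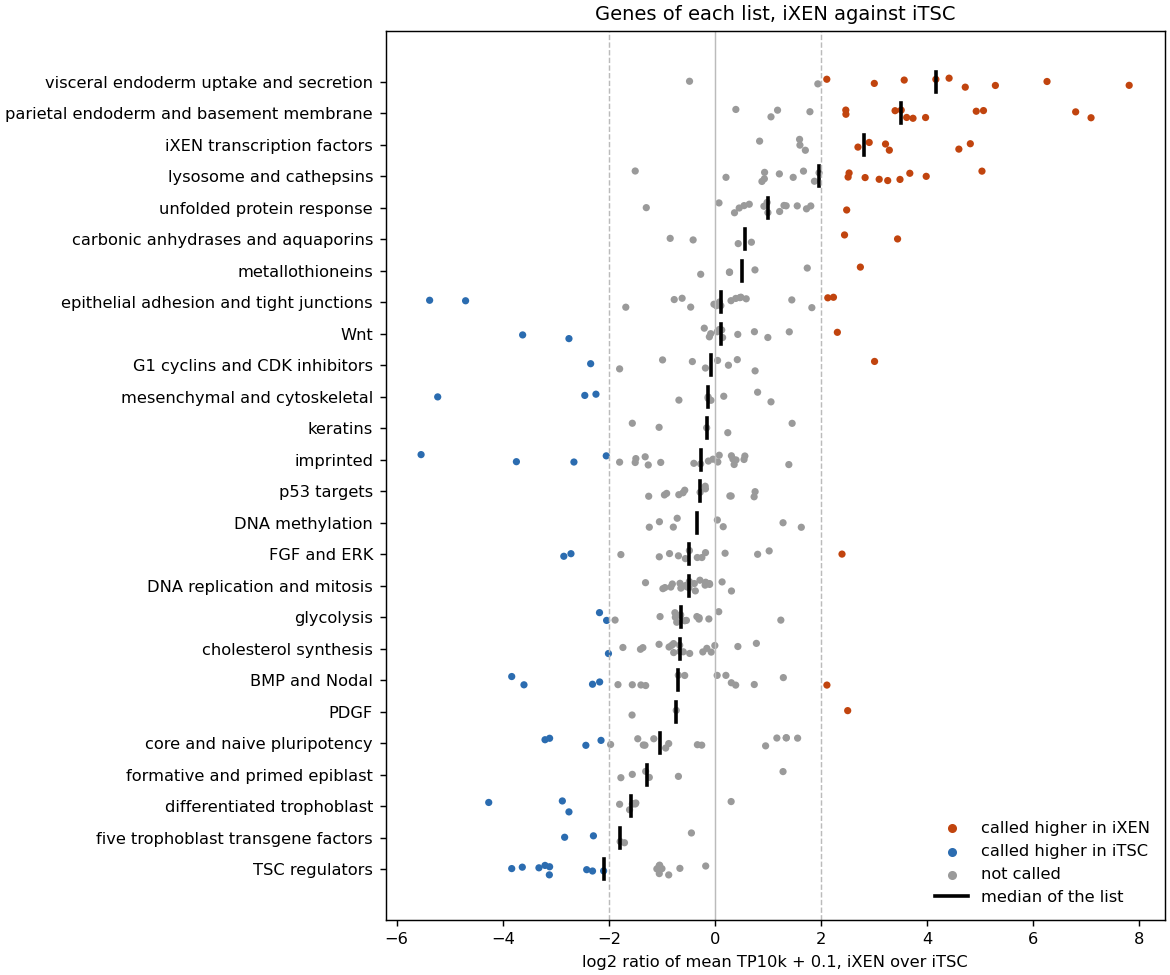
log2 ratio of mean TP10k + 0.1, iXEN over iTSC, for the compared genes of 26 lists, 1 point a gene, with the median of each list as a black bar and dashed lines at 4-fold. The endoderm, basement membrane and lysosome lists stand on the right, the TSC and trophoblast lists on the left, and claudins, cyclins and ligands spread to both sides within their lists.

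Lists of general cell functions differed in their share of called genes. None of 20 genes of DNA replication and mitosis was called, and 11 were shared, although 18 had a negative ratio (median -0.49). Of 17 glycolysis genes, 2 were called, *Ldhb* (1.05 against 4.64 TP10k) and *Pdk1* (0.202 against 1.27), both higher in iTSC. The glucose transporters had opposite signs, with *Slc2a3* at 19.2 TP10k in iXEN against 8.08 and *Slc2a1* at 4.05 against 8.41. Of 19 cholesterol synthesis genes, 17 had a negative ratio and *Mvd* was called (0.491 against 2.28 TP10k). The DNA methyltransferases also had opposite signs without being called, with *Dnmt3l* (log2 ratio 1.63) and *Dnmt3a* (1.28) higher in mean in iXEN and *Dnmt3b* (-1.24) in iTSC. None of 13 p53 targets was called. Of 6 carbonic anhydrases and aquaporins compared, 2 were called, both higher in iXEN. *Car4*, a carbonic anhydrase, averaged 17.7 against 3.18 TP10k, the water channel *Aqp8* 1.01 against 0.00253, and *Slc39a8*, a zinc importer, 0.610 against 0.00639, iXEN given first. *Glul*, glutamine synthetase, stood at 9.91 against 0.495 TP10k and *Npl*, a sialic acid lyase, at 6.83 against 0.0414.

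Levels of pluripotency genes differed between the cultures. Whether they are left over from the ESC state was not tested. *Pou5f1* averaged 1.60 TP10k in iXEN and 1.93 in iTSC, against 27.8 in ESC, and *Nanog* 0.0372 and 0.250 against 11.2. In iTSC these were uneven. *Pou5f1* had a median of 0.231 and a highest cell of 22.5 TP10k and correlated at r = 0.60 with *Nanog*, and *Nanog* at 0.63 with *Tdgf1*, which was found in 23 iTSC. *Cdx2* and *Nanog* correlated at -0.05 (-0.08 over the 80 cells with 8000 to 10000 expressed genes), and *Gata3* and *Nanog* at -0.25. *Dppa5a*, an RNA-binding protein of ESCs, stood at 34.7 TP10k in iXEN, 11.7 in iTSC (log2 ratio 1.56) and 137 in ESC. Of 18 pluripotency genes compared, 4 were called, all higher in iTSC and among them *Esrrb*, *Sox2* and *Utf1*. *Esrrb* and *Sox2* are also counted among the TSC regulators above. *Utf1* was higher in iTSC than in ESC (6.32 against 2.53 TP10k).

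Set beside the ESC, the called genes of the 2 sides had different positions. Both comparisons with ESC use the same 142 control cells. The genes were called for a 4-fold difference between the cultures, so a distance from ESC is partly built into the choice. The same counts over all compared genes were not taken. Of the 174 genes higher in iXEN, 144 were at least 4-fold above ESC in iXEN, and in 122 of these iTSC lay within 2-fold of ESC. In 3 genes iTSC was at least 4-fold below ESC. Of the 116 genes higher in iTSC, 47 were at least 4-fold above ESC in iTSC, in 29 iXEN was at least 4-fold below ESC, 1 met both, and 41 met neither. *Cldn4* met both, at 8.49 TP10k in iTSC, 0.106 in iXEN and 0.885 in ESC. Genes with a higher mean in ESC than in either culture, and called between the cultures, included *Upp1*, a uridine phosphorylase (8.56 in iTSC, 0.558 in iXEN, 14.4 in ESC), *Ifitm2* (9.90, 1.72, 21.0), *Ifitm3* (2.24, 0.0679, 16.3), *Sox2* and *Esrrb*.

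**Figure D4:**
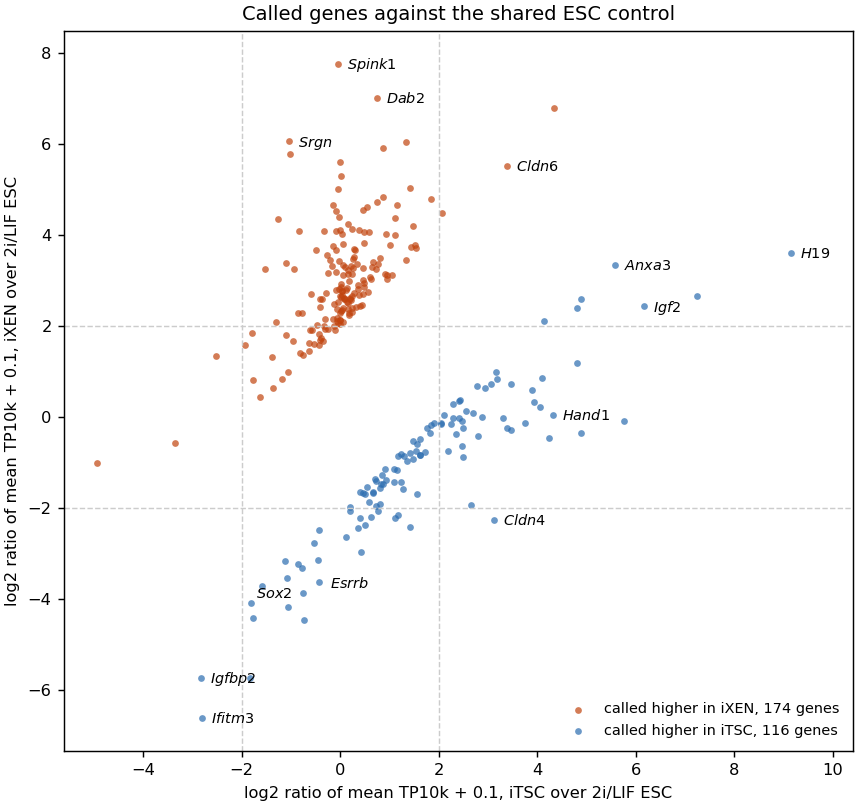
The 290 called genes by their log2 ratio over 2i/LIF ESC in iTSC (horizontal) and iXEN (vertical), on mean TP10k + 0.1, with dashed lines at 4-fold. Most genes higher in iXEN (orange) lie above the upper line near 0 for iTSC. Genes higher in iTSC (blue) run from values above ESC in iTSC at the right to values below ESC in iXEN at the lower left.

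Some of the called genes were neighbours in the genome. With 100 kb as the limit, there were 30 pairs of consecutive called genes, 24 of them higher in the same culture (10 in iXEN, 14 in iTSC) and 6 in opposite ones. The first kind included *Apoc2* and *Apoe*, *Bex2* and *Bex4*, and *Ifitm1*, *Ifitm2* and *Ifitm3*. It also counts *H19* with the *Mir675* that lies within it. The second kind included *Cubn* and *Vim*, *Lgals2* and *Sh3bp1*, and *S100a1* and *S100a6*. How often neighbours of all genes share a direction was not computed.

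A far larger number of genes was shared. In 3672 genes (32.9% of those compared) 75% or more of the iXEN and of the iTSC had the gene above 0 TPM and the means lay within a log2 ratio of 0.5. The 10 with the highest levels were *Actb*, *Fabp3*, *Mt1*, *Ppia*, *Hsp90ab1*, *Mif*, *Atp5b*, *Eif5a*, *Hspa8* and *Cox4i1*. *Fabp3*, a fatty acid binding protein, averaged 58.7 TP10k in iXEN, 45.2 in iTSC and 7.30 in ESC, and *Mt1*, a metallothionein, 51.7, 42.8 and 12.5. Of 19 epithelial adhesion genes, 8 were in the shared set, such as *Cdh1* (0.671 and 0.627 TP10k) and *Spint1*.

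Of the shared genes, 27 (0.735%) were at least 4-fold above ESC in both cultures and 4 (0.109%) at least 4-fold below. *Krt18*, a keratin of simple epithelia, led the genes above ESC with 6.83 TP10k in iXEN (0.698 to 36.6), 5.77 in iTSC (0 to 37.2) and 0.0572 in ESC. It was followed by *Cited1*, a transcriptional coregulator (5.62, 7.88 and 0.150), *Vill*, a villin-like actin-binding protein (0.763, 0.743 and 0.00290), *Cyba*, the small chain of NADPH oxidase (5.49, 4.04 and 0.44), and *Peg3*, a paternally expressed zinc finger gene (1.31, 1.61 and 0.0848). *Fabp3*, *Pcgf5*, *Bst2*, *Efna3* and *Stard10* completed the first 10. The 4 genes below ESC were *Fn1* (0.453, 0.506 and 3.13 TP10k in ESC), *Set*, a histone chaperone (5.18, 5.58 and 22.8) and the zinc finger genes *Zfp985* and *Zfp980*. Pluripotency genes that were low in both cultures, such as *Nanog*, are not in this set because they missed the share of cells or the limit of the ratio.

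In the RtL-embryoids, k-means clustering gave 326 VE-like, 335 ExE-like and 321 Epi-like cells. The 3D cells had a median of 5219 genes above 0 TPM, against 8699 in 2D iXEN and 8537 in 2D iTSC, and were on other plates. Levels in 2D and 3D are thus not like for like. The log2 ratio of VE-like over ExE-like cells had the 2D sign in 168 of 174 genes higher in iXEN and 107 of 116 genes higher in iTSC, while 40.65% of all 11161 genes had a positive ratio. It was at least 4-fold in 93 and 53 of them, while of all 11161 genes 140 were at least 4-fold higher in VE-like and 135 in ExE-like cells. *Cldn4* averaged 8.86 TP10k in ExE-like and 0.0109 in VE-like cells, *Sct* 13.7 against 0.0484, and *Col4a1* 16 in VE-like and 0.0956 in ExE-like cells. *Igf2* was at 6.94 TP10k in ExE-like and 0.568 in VE-like cells, close to its 2D means, whereas *H19* was at 0.0502 and 0.0153 and *Mir675* was listed at 0 in both. Genes with the opposite sign to 2D on each of plates 3, 4 and 5 included *Ly6g6e*, *Nr0b1*, *Gjb5*, *Utf1* and *Mest* of the iTSC and *Fam213a* of the iXEN.

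**Figure D5:**
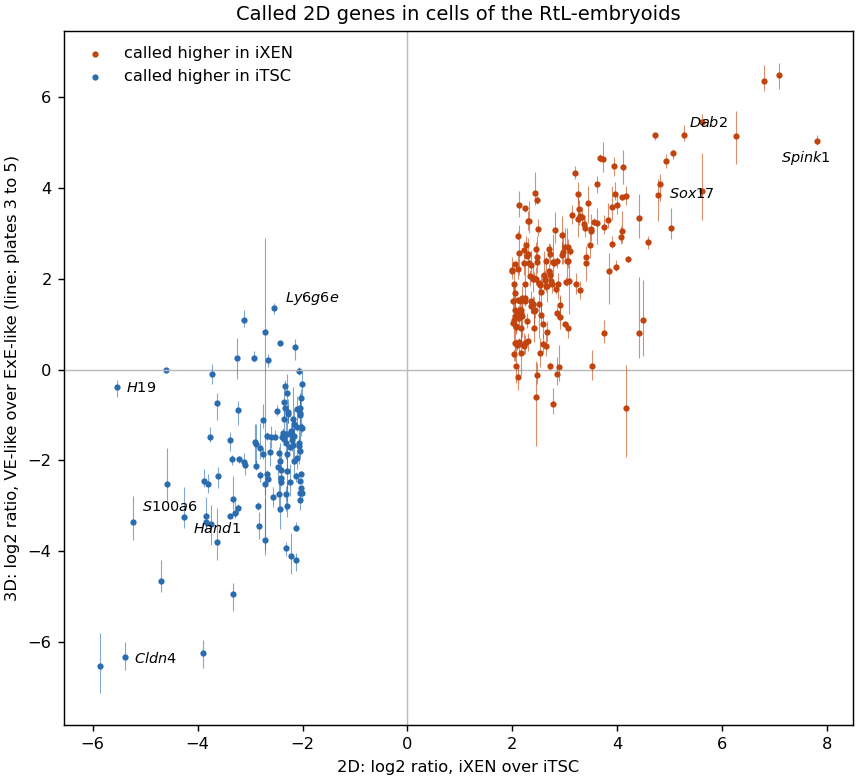
log2 ratio of the 290 called genes in 2D (horizontal, iXEN over iTSC) and in cells of the RtL-embryoids (vertical, VE-like over ExE-like), both on mean TP10k + 0.1. Points give all plates, lines the range over plates 3 to 5, and of the iTSC genes *H19* lies near 0 and *Ly6g6e* above 0 on the vertical axis.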

How the data were processed

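Single cells were sequenced by SMART-seq2. Per the study's methods and the labels, the authors demultiplexed reads with bcl2fastq, quantified them with kallisto on GRCm38 transcripts, summed them per gene and removed mitochondrial, ribosomal and pseudogenes. They deposited TPM for 20999 genes. The study's minimum of aligned reads could not be applied to TPM, and columns of TPM no longer sum to the same total after the removal, so each cell was rescaled to 10000 (TP10k). Full-length reads without molecular identifiers are not independent molecules.

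Cells with at least 2500 genes above 0 TPM were kept. Means of TP10k were compared with a constant of 0.1 for genes above 0 TPM in 25% or more of the iXEN or of the iTSC, and genes at least 4-fold apart were called. With 1 culture a side, no test was possible, and no sample was left unassigned. Reads of overlapping or near-identical genes (*Rhox*, *Ifitm*, *H19* with *Mir675*) may have been split between them.

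The members, lists and settings were chosen with earlier results of these data known. Genes named were the 15 in each direction with the largest difference of mean ln(TP10k + 1) and members of 29 lists. Of the shared genes, the 10 with the highest level, the 10 furthest above ESC and all those called below ESC were named. Some members of these lists are not reported here. Other genes, 10 gene families and the *H19* levels were chosen after their values were seen. The 3D cells were clustered by k-means and named from markers. Positions are those of Gencode vM21. Alternatives were another minimum of genes, constant, filter, fold, scale, trimmed means and a narrow range of gene numbers. Analyses used Python 3.11.15, numpy 2.4.6, pandas 2.3.3, scipy 1.17.1 and scikit-learn 1.9.0, and the code was tested on simulated data.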

Additional observations from a re-analysis of the deposited data

Results flagged for a closer look

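*Ly6g6e*, a member of the Ly6 family of small surface proteins, was higher in iTSC than in iXEN in 2D (0.696 against 0.0361 TP10k) and higher in VE-like than in ExE-like cells of the RtL-embryoids (0.300 against 0.0551 TP10k). The 3D log2 ratio was 1.37 over all plates and positive on each of plates 3, 4 and 5 (1.42, 1.46 and 1.22). The difference between 2D and 3D was not tested, since both are single cultures or pools.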

How the results depend on the processing

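No paired analysis was possible because each culture is 1 sample, and there was no replicate to leave out. The counts of called genes, 174 higher in iXEN and 116 higher in iTSC, followed the scale and the threshold. With a constant of 0.01 they were 430 and 465, with a constant of 1 they were 32 and 12, and on the exponentials of mean ln(TP10k + 1) they were 31 and 8. With a threshold of 2-fold they were 691 and 696, and with 8-fold 66 and 32. On deposited TPM with a constant of 10 TPM, 68 genes were higher in iTSC and 151 in iXEN. The iXEN share of calls was 60% and became 48.0%, 72.7%, 79.5%, 49.8% and 68.95% with a constant of 0.01, a constant of 1, mean ln, 2-fold and deposited TPM. Under the other settings the counts lay between 171 and 197 for iXEN and between 111 and 128 for iTSC. Shared genes, 3672 as reported, numbered 3313 with a constant of 0.01 and between 3390 and 5219 under the remaining settings. Without the iTSC with *Tdgf1*, an alternative chosen after seeing the data, 178 and 115 genes were called. When called genes were ranked by the difference in the share of cells, 5 of the 30 leading genes were the same. Counting a marker from 1 TPM, 14 iXEN in place of 23 had 5 or more iTSC markers, and 0 iTSC in place of 2 had 5 or more iXEN markers. Depth limits genes near 0, for which a missing value and a low level cannot be told apart.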

Other observations

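Other motifs searched on both strands in the promoter windows gave the following shares, in the order genes higher in iXEN, genes higher in iTSC, all compared genes and all promoters. The E-box TCACGTGA, bound by the TFE and MITF family, was in 3.31%, 0%, 1.90% and 0.974% of the windows, that is in 6 of 181 and 0 of 119 for the called genes. The TEAD motif GGAATG was in 17.7%, 15.1%, 12% and 14.7%, the ETS motif CCGGAA in 18.2%, 13.4%, 27.7% and 14.9%, and the CDX motif TTTATGG in 2.76%, 2.52%, 1.63% and 2.75%. The X chromosome held 373 compared genes, of which 11 (2.95%) were called higher in iXEN and 10 (2.68%) higher in iTSC. The called genes of the iTSC varied more between cells of their own culture than those of the iXEN, with a median SD of ln(TP10k + 1) of 0.491 against 0.397, and among all compared genes the medians were 0.213 and 0.190.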
